A study of Danio rerio with 3 samples.

Results

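The genes described here are 2 zebrafish mfap4 genes (ENSDARG00000088745 and ENSDARG00000090783), lacc1 (ENSDARG00000076914) and pglyrp5 (ENSDARG00000068382), 4 of the 21915 gene IDs counted in sorted macrophages. They were chosen by name, with their lower levels in mutants already known, so that difference is described below and not tested. Embryos at 5 days post fertilization were dissociated and cells in the mpeg gate, which marks macrophages, were sorted into 384-well plates for CEL-Seq2, a method that counts the 3′ ends of transcripts by unique molecular identifier (UMI). The embryos were ptpn6 mutants or their siblings. The gene ptpn6 encodes Shp1, a tyrosine phosphatase that dampens immune receptor signalling. The labels describe neither the lesion nor the genotypes among the siblings, and the sources used here do not give the number of embryos. Cells of both genotypes shared 1 plate on sort day 1, the siblings in its upper rows (A to H) and the mutants in its lower rows (I to P). Siblings and mutants of sort day 2 were on separate plates, so that genotype and plate cannot be told apart on that day, and sort day and plate cannot be told apart at all.

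In zebrafish the promoter of an mfap4 gene is widely used to label macrophages; the mammalian protein is a secreted glycoprotein with a fibrinogen-related domain that sits in the extracellular matrix. The enzyme encoded by LACC1 in mammals acts in purine nucleoside metabolism and in the metabolic activity of macrophages. Peptidoglycan recognition proteins, the family of pglyrp5, bind the cell wall polymer of bacteria.

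Wells with at least 1000 gene UMIs were kept, 593 of 1152 in all. The 4 pools of wells were the siblings of day 1 (131 wells, 1121213 UMIs), the mutants of day 1 (138 wells, 1406635 UMIs), the siblings of day 2 (199 wells, 2185636 UMIs) and the mutants of day 2 (125 wells, 1290186 UMIs). The median well of a pool held 6890 to 9964 UMIs. Wells of a pool share their embryos, plate and sort, so the pool is the unit of comparison, with 2 per genotype and 2 per day. The larger mpeg1 gene (ENSDARG00000055290), for the pore-forming protein behind the sort marker, had 178, 187, 146 and 185 CPM (UMIs per 1000000 UMIs of the pool) in that order of pools. A second mpeg1 gene, ENSDARG00000043093, had 27.6, 44.1, 77.4 and 37.2 CPM. The macrophage markers made up 0.412%, 0.443%, 0.392% and 0.633% of the UMIs. Transcripts of ptpn6 were too rare to check the genotypes, with 11 and 3 UMIs in the siblings of days 1 and 2 and 5 and 0 in the mutants.

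With the wells of the shared plate numbered row by row, all 4 genes had a lower summed level in the mutants than in the siblings of the same day. On day 1 this direction depends on that well order, which was inferred from near-empty wells. Numbered column by column, the day 1 level was 292 CPM in siblings and 326 CPM in mutants for mfap4 ENSDARG00000088745, and 262 CPM and 292 CPM for lacc1, so that both turned round. It was 460 CPM and 442 CPM for mfap4 ENSDARG00000090783 and 236 CPM and 222 CPM for pglyrp5. Day 2, with a plate for each genotype, does not depend on the order, and all day 1 values by genotype below are row by row. The level of mfap4 ENSDARG00000088745 was 410.9 CPM in the siblings and 229.1 CPM in the mutants of day 1, and 698.7 CPM and 193.2 CPM on day 2. For mfap4 ENSDARG00000090783 it was 544.9 CPM and 376.1 CPM on day 1, and 658.6 CPM and 270.0 CPM on day 2. In this reading both sibling pools stood above both mutant pools for each mfap4 gene. The level of lacc1 was 343.9 CPM in the siblings and 225.1 CPM in the mutants of day 1, and 459.4 CPM and 145.9 CPM on day 2. That of pglyrp5 was 310.7 CPM and 162.9 CPM on day 1, and 591.7 CPM and 128.0 CPM on day 2. The pools were ranked alike for all 4 genes: siblings of day 2 were highest, then siblings of day 1, mutants of day 1 and mutants of day 2. Intervals of counting error (exact Poisson, 95%) of neighbouring pools overlapped only between the mutants of the 2 days, for mfap4 ENSDARG00000088745 (204.6 to 255.3 CPM against 169.8 to 218.5 CPM) and for pglyrp5 (142.4 to 185.3 CPM against 109.1 to 149.0 CPM). These intervals leave out the spread between embryos, plates and sorts. How often the intervals of other genes overlapped was not computed, and these genes were known to be lower in mutants.

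**Figure D1:**
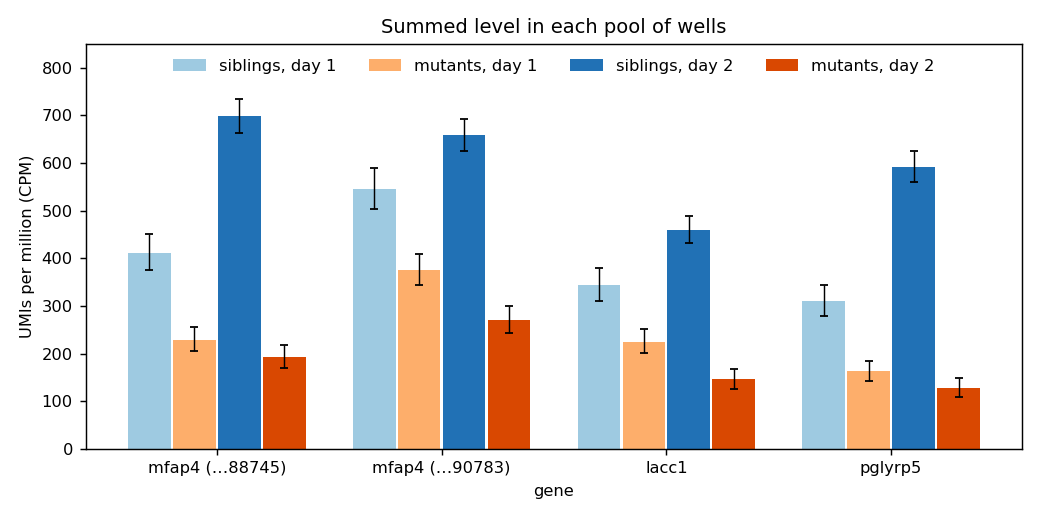
Summed level of each gene in CPM, for the 4 pools of wells; error bars are exact 95% Poisson intervals of the counts and cover counting error only. With the shared plate read row by row, both sibling pools stand above both mutant pools for each gene, and the siblings of day 2 stand highest.

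As a ratio of mutant to sibling, pglyrp5 was at 0.524 on day 1 and 0.216 on day 2, the lowest of the 4 genes on each day. The ratio of mfap4 ENSDARG00000088745 was 0.558 and 0.277, that of lacc1 0.654 and 0.318, and that of mfap4 ENSDARG00000090783 0.690 and 0.410. The fitted log2 folds over the 4 pools were -1.80 (SE 0.41) for pglyrp5, -1.56 (SE 0.37) for mfap4 ENSDARG00000088745, -1.27 (SE 0.37) for lacc1 and -1.05 (SE 0.32) for mfap4 ENSDARG00000090783. In that fit edgeR called 0 of 8177 genes at an adjusted p under 0.05, which is 0% of the genes tested. At an unadjusted p under 0.05 there were 271 genes. DESeq2 gave 21686 genes a p-value and called 29. It adjusts p only for genes that pass its own filter, and their number was not kept. The 4 genes were in both fits, but their p-values are not given because this contrast chose them. Of all genes tested, 15.9% were lower in mutants on both days. Column by column, the folds over the 4 pools were -1.09 for mfap4 ENSDARG00000088745 and -0.88 for lacc1, with their day 1 levels turned round as given above and only day 2 lower in mutants.

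Fewer mutant wells held each transcript on day 2, and wells that held it had less of it. On day 2, mfap4 ENSDARG00000088745 was seen in 170 of 199 sibling wells (85.4%) and 51 of 125 mutant wells (40.8%), and mfap4 ENSDARG00000090783 in 172 sibling wells (86.4%) and 64 mutant wells (51.2%). Transcripts of lacc1 were seen in 121 sibling wells (60.8%) and 39 mutant wells (31.2%), and those of pglyrp5 in 172 sibling wells (86.4%) and 51 mutant wells (40.8%). The exact 95% binomial intervals of the genotypes did not overlap on day 2 for any of the 4 genes. On day 1 they overlapped for all 4. These intervals take wells as independent and leave out the spread between embryos, plates and sorts. The genes were known to be lower in mutants, and no share of genes without overlap was computed over all genes. On day 1 pglyrp5 was seen in 70 of 131 wells from siblings (53.4%) and 75 of 138 from mutants (54.3%). Its summed level was nevertheless lower in the mutants. Among wells with the transcript, the median level of pglyrp5 on day 1 was 3.54 UMIs per 10000 in siblings and 2.36 in mutants, and on day 2 it was 6.01 and 1.81. With each well thinned to 1000 UMIs, the share of wells with pglyrp5 was 19.1% for siblings and 16.7% for mutants on day 1, and 42.7% and 10.4% on day 2. A few wells held a sizeable share of the UMIs: for mfap4 ENSDARG00000088745 the 3 highest of the 125 mutant wells of day 2 held 30.2%.

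**Figure D2:**
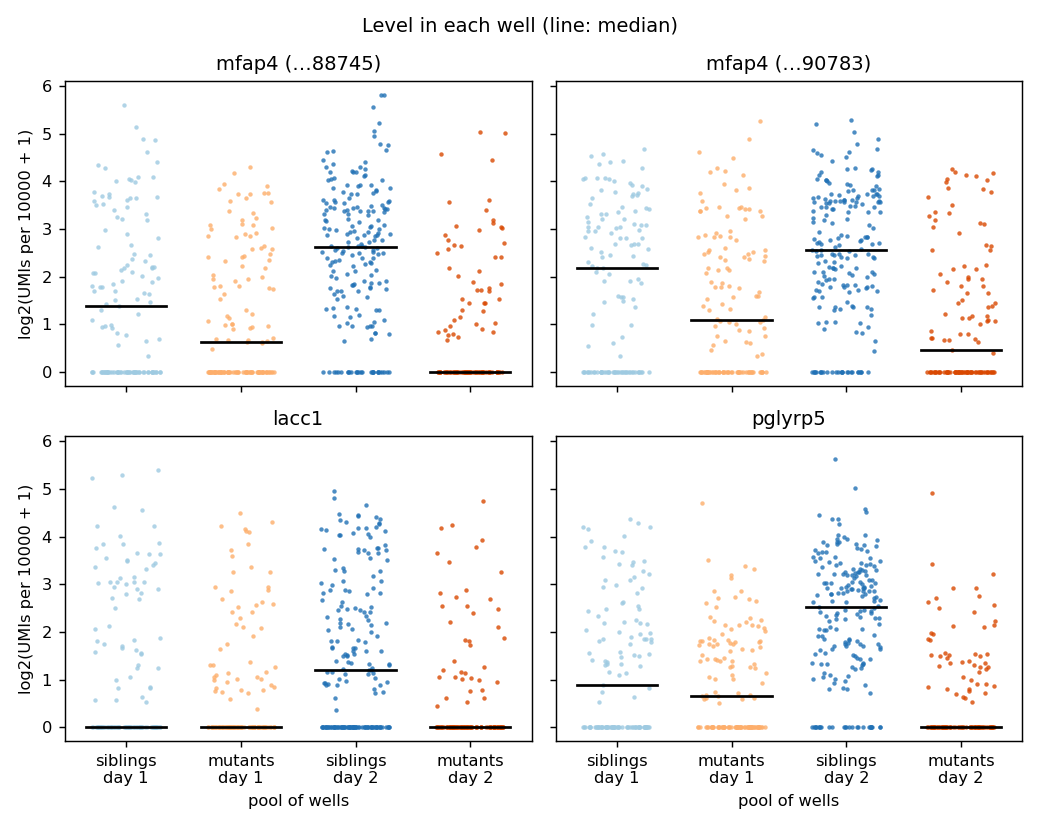
Level of each gene in each well kept, as log2(UMIs per 10000 + 1), by pool; 1 point is 1 well and the line is the median. Points at 0 are wells without a UMI of the gene: the median is 0 in the mutants of day 2 for all but mfap4 ENSDARG00000090783, and in all pools but the siblings of day 2 for lacc1.

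A UMI in a well is not by itself expression, because free RNA reaches wells as well. Wells under 500 UMIs held 1 to 20 UMIs of each gene per pool. In the siblings of day 2 these 165 wells held 20 UMIs of pglyrp5 (608.5 CPM, interval 371.7 to 939.8), close to the 591.7 CPM of the wells kept. In the same pool mfap4 ENSDARG00000088745 stood at 365.1 CPM in the low wells (188.7 to 637.8), below its level in the wells kept. In the mutants of day 1 all 4 genes stood higher in the low wells than in the wells kept. These levels rest on 2 to 4 UMIs each. There lacc1 was at 456.8 CPM (124.5 to 1169.6) against 225.1 CPM, and pglyrp5 at 228.4 CPM (27.7 to 825.0) against 162.9 CPM. Each other pool had genes that were higher in the low wells and genes that were lower. Pools differed in RNA of other cell types too: muscle markers made up 0.216% of the UMIs in the mutants of day 1 and 0.00628% to 0.0397% elsewhere. The value of 0.0397% was that of the siblings of day 1, on the same plate as those mutants. Neural markers stood at 0.0630% in the siblings of day 2 and at 0.00364% to 0.0109% elsewhere, and neutrophil markers at 0.118% in the mutants of day 2 and 0.0217% to 0.0503% elsewhere. The part of free RNA and of other cells in the levels above was not tested.

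Most wells held some of the 4 transcripts, and the wells with all 4 were mainly those of siblings. On day 1 all 4 were found in 38 of 131 wells from siblings (29%) and in 20 of 138 from mutants (14.5%). On day 2 they were found in 100 of 199 wells from siblings (50.3%) and in 9 of 125 from mutants (7.2%). None was found in 17, 19, 5 and 33 wells of the siblings and mutants of day 1 and the siblings and mutants of day 2. Together the 4 genes made up 0.161%, 0.0993%, 0.241% and 0.0737% of the UMIs in that order. The mutants of day 2, with the lowest share, had the highest median depth per well.

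Sort day, a contrast that did not choose the genes, gave no call among them. The test compared the 2 pools of day 2 with the 2 pools of day 1 by edgeR's quasi-likelihood test with Benjamini-Hochberg adjustment, and called 9 of 8177 genes (0.11%), all lower on day 2. None of the 4 genes passed: pglyrp5 had a log2 fold of 0.65 (SE 0.69, edgeR adjusted p = 0.798), mfap4 ENSDARG00000088745 of 0.52 (SE 0.61, adjusted p = 0.819), lacc1 of 0.12 (SE 0.55, adjusted p = 0.971) and mfap4 ENSDARG00000090783 of 0.03 (SE 0.48, adjusted p = 0.989). The fit had no genotype term, so the genotype difference that chose the genes was part of its spread within each day. With genotype as a block the SE was 0.37 for pglyrp5 and 0.32 for mfap4 ENSDARG00000088745. None of the 4 passed there either (edgeR adjusted p of 0.879 to 0.960). The genotypes went opposite ways between the days. From day 1 to day 2 the 4 genes were higher in siblings, by log2 ratios of 0.27 to 0.93, and lower in mutants, by -0.25 to -0.63. Without the mutants of day 2 the log2 fold of pglyrp5 was 1.44, and without the siblings of day 2 it was -1.04. In these fits day 2 holds a single genotype and day 1 holds both. The genotype difference that chose the gene therefore enters the fold.

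The 2 mfap4 genes hold nearly all mfap4 counts. Of the 11 IDs named mfap4 in the files' annotation, they had 5487 of 5794 UMIs (94.7%), and the other 9 had 1 to 167 each. The largest of those, mfap4 ENSDARG00000089667, had 13, 29, 100 and 25 UMIs in the siblings and mutants of day 1 and of day 2. After it came mfap4 ENSDARG00000038681 with 50 UMIs in all, mfap4.11 with 45, mfap4.8 with 19 and mfap4.7 with 11, while mfap4 ENSDARG00000090557, mfap4.10, mfap4 ENSDARG00000038683 and mfap4.4 had 5, 5, 4 and 1. In the RefSeq annotation of the GRCz12tu assembly, 13 mfap4 genes lie within a stretch of 26 genes on 1 chromosome, and lacc1 and pglyrp5 lie elsewhere. Reads of such close copies can be split or lost in counting, and the sources used here do not say how they were assigned, so levels of single mfap4 genes are uncertain.

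Across wells of a pool the 4 genes varied together to different degrees. Pearson's r of log2(UMIs per 10000 + 1) was computed within each pool, over 125 to 199 wells that share a plate and a sort, and is a description. Between the 2 mfap4 genes it was 0.48 in the siblings and 0.52 in the mutants of day 1, and 0.37 and 0.50 on day 2, with a mean of 0.47. Between lacc1 and pglyrp5 it was 0.40 and 0.31 on day 1 and 0.47 and 0.37 on day 2, with a mean of 0.39. The 4 pairs of an mfap4 gene with lacc1 or pglyrp5 had lower means, of 0.21 to 0.28, and varied more, from 0.08 in the mutants of day 1 to 0.41 in the mutants of day 2 for mfap4 ENSDARG00000090783 with pglyrp5. For scale, the median r of each gene with all 5471 genes ranked was between -0.01 and 0.01, and its 99th percentile between 0.29 and 0.36. The genes' own r with the depth of the well was -0.00 to 0.23. With each well thinned to 1000 UMIs the r of the 2 mfap4 genes was 0.22, that of lacc1 with pglyrp5 0.13 and those of the other 4 pairs 0.02 to 0.16, so that at this depth lacc1 and pglyrp5 no longer stood apart from the other pairs.

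**Figure D3:**
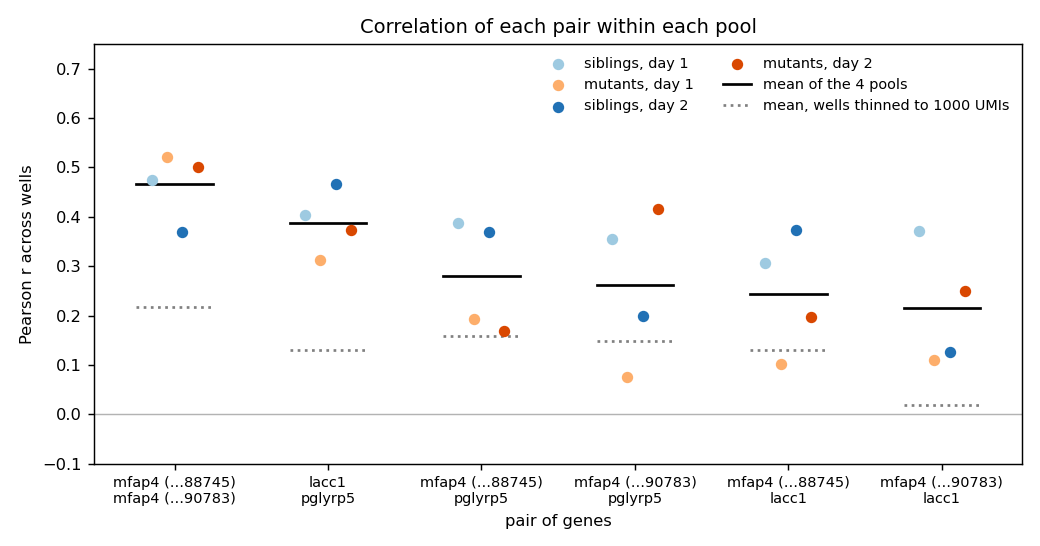
Pearson r across wells for the 6 pairs of genes, with 1 point per pool; the black line is the mean of the 4 pools and the dotted line is that mean after thinning each well to 1000 UMIs. The mfap4 pair and the pair of lacc1 and pglyrp5 have the highest means, and all thinned means are lower.

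The 6 genes most like each of the 4 overlapped in part, and the 2 mfap4 genes had none in common. For mfap4 ENSDARG00000088745 the 6 highest mean r were those of c1ql1 (0.51), which encodes a secreted C1q-like protein, the other mfap4 gene, the scavenger receptor gene marco (0.46), the lysosomal protease gene ctsz (0.43), ENSDARG00000086947, which has no name in the tables used, and acod1 (0.40). The last makes the immune metabolite itaconate in activated macrophages. For mfap4 ENSDARG00000090783 they were sdc4 (0.53), for the cell surface proteoglycan syndecan 4, the chemerin receptor gene cmklr1 (0.53), the amino acid transporter genes slc7a7 (0.50) and slc3a2a (0.48), the zinc exporter gene slc30a1 (0.49) and the unnamed ENSDARG00000058941 (0.48). The proteins of slc7a7 and slc3a2 form the light and the heavy chain of 1 transporter in mammals, and slc7a7 is a microglia gene in zebrafish.

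For lacc1 the highest were the unnamed ENSDARG00000086947 (0.51), olmf4l1 (0.50), the unnamed ENSDARG00000025237, ENSDARG00000005419 and ENSDARG00000033587 (0.49, 0.48 and 0.47) and bcl2l12 (0.44). For pglyrp5 they were ENSDARG00000033587 (0.49), ENSDARG00000086947 (0.49), ENSDARG00000005419 (0.48), olmf4l1 (0.46), acod1 (0.44) and gpr84 (0.43), a receptor gene for medium-chain fatty acids. Lists of the 50 genes most like each shared 36 genes between the 2 mfap4 genes and 34 between lacc1 and pglyrp5, against 20 to 24 for the other pairs. ENSDARG00000086947 was among the 6 of all but mfap4 ENSDARG00000090783. The apolipoprotein gene apoeb, a microglia marker, had a mean r of 0.28 with mfap4 ENSDARG00000090783 and 0.09 with mfap4 ENSDARG00000088745, and of -0.11 and -0.12 with lacc1 and pglyrp5.

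**Figure D4:**
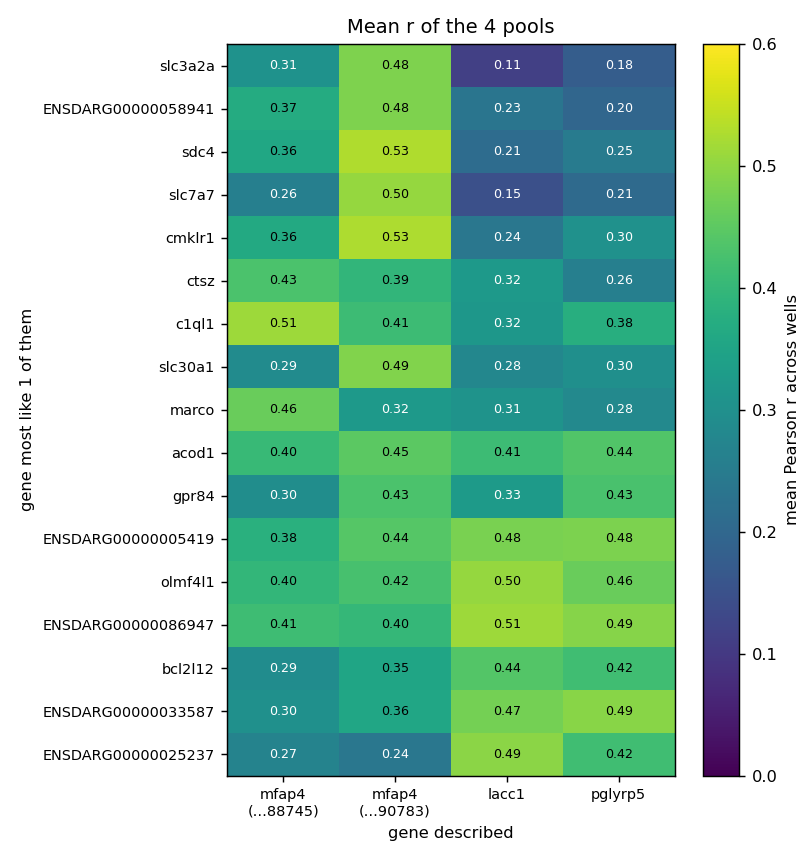
Mean Pearson r across wells, over the 4 pools, of the 17 genes other than the 4 described that were among the 6 most like any of them; columns are the genes described and colour and digits give r. Genes at the top follow mfap4 ENSDARG00000090783 more than lacc1, as slc3a2a does at 0.48 against 0.11, and genes at the bottom follow lacc1 and pglyrp5 more.

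The 3 genes of signalling downstream of bacterial sensing that were detected widely enough varied with the 4 across wells. The list of peptidoglycan recognition and of NOD and Toll-like receptor sensing had 9 IDs in the tables, of which 3 besides pglyrp5 were seen in 10% or more of the wells, none of them a sensor. Their mean r with the summed 4 genes was 0.43 for tnfaip3, which encodes the NF-kappaB inhibitor A20, 0.30 for the signalling adaptor gene card9 and 0.26 for irak3, a brake on Toll-like receptor signalling. Of all 5468 genes detected, 429 had a mean r above 0.2. The list of purine nucleoside, citrulline and ornithine metabolism had 18 IDs, lacc1 among them. Besides lacc1, 8 of them were seen that widely, and 5 of these 8 had a mean r above 0. Their highest was the itaconate gene acod1 at 0.61, which is on the list but belongs to none of the pathways it is named for. It alone was above 0.2, and the median of the 8 was 0.08. Next came an adenosine deaminase gene, ada2 ENSDARG00000015623, at 0.20 and the ornithine decarboxylase gene odc1 at 0.17. The lowest were the purine salvage gene hprt1 at -0.13 and the arginase gene arg2 at -0.08. The salvage genes adk and aprt, named after their values were seen, stood at 0.01 and -0.07, and the median of all 5468 genes detected was -0.00. In the sort day test 0 of the 7 tested sensing genes, 0 of the 11 tested metabolic genes and 0 of the 4 tested mfap4 genes passed (edgeR adjusted p of 0.451 to 0.989), with median log2 folds of -0.15, 0.14 and 0.27 against 0.01 over all genes tested. At an unadjusted p under 0.05 there was 1 of these genes, odc1 (log2 fold 0.84, SE 0.33, edgeR adjusted p = 0.451). Of all 8177 genes tested, 841 were under that p, so nothing is read from odc1.

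Lymphoid markers went the other way. All 3 lymphoid markers detected had a negative mean r with the summed 4 genes, led by the chemokine receptor gene ccr9 at -0.42, the lowest of the 5468 genes, and eomes, a T-box factor gene of lymphocytes, at -0.28. Of 16 macrophage markers 12 were above 0, with marco at 0.49 and spi1, for the myeloid factor PU.1, at 0.30, while the invariant chain gene cd74a was at -0.13. All 5 microglia markers were above 0, with slc7a7 at 0.45, havcr1, a receptor gene for dying cells, at 0.33 and apoeb lowest at 0.15. Of all 5468 genes detected, 2689 were above 0. With lacc1 and pglyrp5 singly, the mean r was 0.15 and 0.21 for slc7a7, 0.04 and 0.05 for havcr1, and -0.11 and -0.12 for apoeb.

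Clustering of the wells without any mfap4 gene, lacc1 or pglyrp5 gave 10 clusters in which the 4 genes had distinct profiles. These levels are a description, since genes that vary with the 4 still shaped the clusters. In the 86 wells of a microglia-like cluster, led by apoeb and with apoc1 and ccl34b.1 among its 10 leading genes, mfap4 ENSDARG00000090783 stood at 9.66 UMIs per 10000, its highest level of any cluster. In the same wells lacc1 stood at 0.353 UMIs per 10000 (27 UMIs in all, exact Poisson interval 0.232 to 0.513). Transcripts of mfap4 ENSDARG00000090783 were seen in 80 of these wells and those of lacc1 in 18. The level of lacc1 there was close to that of a lymphoid-like cluster of 42 wells, led by sftpba with eomes and ccr9 among its leading genes, at 0.287. That cluster had a median depth of 8955 UMIs, against 8623 in the microglia-like wells. All 4 genes were low in it, at 0.287 to 0.706 UMIs per 10000. They were seen in 38.1% (mfap4 ENSDARG00000088745), 33.3% (mfap4 ENSDARG00000090783), 23.8% (lacc1) and 35.7% (pglyrp5) of its wells. Whether its wells hold free RNA of the genes or express them was not tested, so it is a comparison and not a background. At this resolution the share of microglia-like wells with lacc1, 20.9%, was no higher than that of the lymphoid-like wells; whether those express the gene was not tested.

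In the 2 clusters with most lacc1 the other genes were high as well. A cluster of 68 wells led by si:ch211-284o19.8 and the cytokine gene tnfa had 8.37 UMIs of lacc1, 8.49 of pglyrp5, 10.5 of mfap4 ENSDARG00000088745 and 7.64 of mfap4 ENSDARG00000090783 per 10000. Of its wells 58 came from the siblings of day 2, so that the cluster and that plate cannot be told apart. A cluster of 63 wells led by timp2 ENSDARG00000075261, with 27, 19, 13 and 4 wells from the pools, had 7.60 of lacc1, 5.98 of pglyrp5, 8.93 of mfap4 ENSDARG00000088745 and 6.83 of mfap4 ENSDARG00000090783. The cluster led by ctsk, a protease gene of osteoclasts, held 98 wells, with lacc1 at 3.94, pglyrp5 at 3.67, mfap4 ENSDARG00000088745 at 4.41 and mfap4 ENSDARG00000090783 at 5.02. It had osteoclast markers (ctsk and ocstamp) among its leading genes. Of the marker lists, 3 of 4 osteoclast and 12 of 18 macrophage genes were each seen in at least 25% of its wells. It is called by its leading gene. These 3 clusters, picked after their levels were seen, held 79.3% of the lacc1 UMIs, 69.8% of those of mfap4 ENSDARG00000088745, 68.3% of those of pglyrp5 and 52.8% of those of mfap4 ENSDARG00000090783, against 41.8% of all UMIs. As each UMI counts 1 transcript end, levels of different genes were compared without scaling to length. The ratio of mfap4 ENSDARG00000090783 to lacc1 was 27.4 in the microglia-like cluster and 0.899 to 2.92 in the other 9, and its ratio to mfap4 ENSDARG00000088745 was 2.28 there and 0.727 to 2.03 in the others. The split between lacc1 and mfap4 ENSDARG00000090783 was weaker at other resolutions, where lacc1 stood above the 0.287 of the lymphoid-like wells: it was at 1.46 UMIs per 10000 in the 129 microglia-like wells of resolution 0.5 and at 1.05 in the 104 of resolution 2, where the ratio was 5.69 and 8.67.

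In the microglia-like wells the direction between the genotypes on day 1 was not the same for all 4 genes. There lacc1 stood at 0.343 UMIs per 10000 in siblings and 0.0605 in mutants (5 and 1 UMIs), and pglyrp5 at 1.79 and 1.03 (26 and 17 UMIs). Both mfap4 genes were slightly higher in mutants. Whether the genes differ was not tested on these few UMIs, and levels by cluster were not redone with wells numbered by column. The level of mfap4 ENSDARG00000090783 was 9.77 UMIs per 10000 in 16 sibling wells and 10.5 in 20 mutant wells of day 1, and 10.7 in 38 sibling wells and 6.19 in 12 mutant wells of day 2. In the cluster led by ctsk, pglyrp5 stood at 6.69 in 14 sibling wells and 2.21 in 23 mutant wells on day 1, and its log2 ratio of mutant to sibling was -1.56 on day 1 and -1.77 on day 2. Of 36 comparisons, 1 for each gene, day and cluster with at least 10 wells of both genotypes, mutants were lower in 33: 13 of 16 on day 1 and 20 of 20 on day 2. These comparisons share wells and plates and are a count, not a test. Values were standardized within each plate before clustering. On day 2 this took out mean differences between the genotypes, so wells were grouped by their place within their own plate. Wells of 1 cluster are therefore not shown to be in the same state, and the 2 days are not alike in this. The genes were known to be lower in mutants, and no share over all genes was computed within clusters. On day 2 the comparisons ran from a log2 ratio of -0.68 to -4.35 (with 0.1 added to each level), and all set the sibling plate against the mutant plate. The lowest was that of pglyrp5 in the cluster led by opn1sw, with 1 UMI in its 19 mutant wells. At resolution 2 that cluster was split. A cluster led by opn1sw then held 11 sibling and 5 mutant wells of day 2, and a muscle-like cluster held 4 and 14. The part of this mix in the comparison was not tested. Several other day 2 values also rest on few mutant UMIs. The exceptions on day 1 were both mfap4 genes in the microglia-like cluster and pglyrp5 in a cluster led by pdk2 ENSDARG00000059054.

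**Figure D5:**
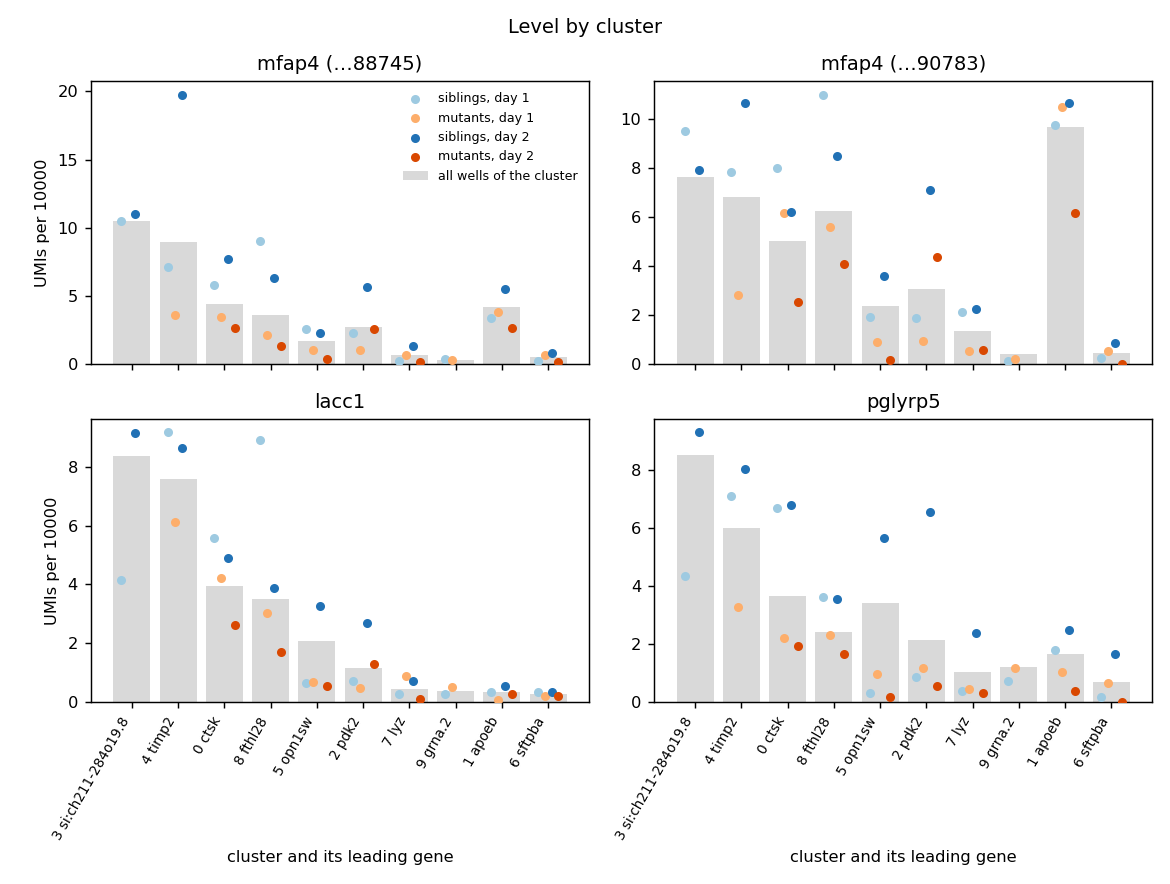
Level of each gene in UMIs per 10000 in the 10 clusters, ordered by the level of lacc1 and named by number and leading gene; bars are all wells of a cluster and points the pools with at least 5 wells in it. In the cluster led by apoeb the bar of mfap4 ENSDARG00000090783 is at 9.66 and that of lacc1 at 0.353.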

How the data were processed

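The authors deposited expected counts of UMIs per gene and well, 1 table per plate. The unit was read from the values: 99.9% or more of the values above 0 lay, within 0.005, on the curve that corrects for molecules drawing the same of 4096 UMIs. Per the submitters' processing notes, reads were aligned with BWA to Zv9; the sources used here give no versions, counting or annotation. All plates use the same 384 well barcodes, so barcode overlap cannot show mixing between plates. Well columns were read row by row, since the 8 wells at the end of rows O and P held a median of 0.0591 and 0.0890 of the plate median on 2 plates (0.799 on the mutant plate).

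UMIs of wells with at least 1000 were summed per pool, rounded and tested with edgeR 4.0.16 (TMM, filterByExpr) and, as an alternative, DESeq2 1.42.0 in R 4.3.3, on sort day and on genotype. The SE of an edgeR fold was derived from the F statistic of the quasi-likelihood test, as the size of the fold over the square root of F. Clusters came from scanpy 1.11.5 and leidenalg 0.10.2: values standardized within plates, 2000 variable genes, 20 components, 15 neighbours, resolution 1. A cluster was named when 2 of its 10 leading genes and 3 genes seen in 25% of its wells were markers of 1 class; clusters that also met this for osteoclast or cell cycle genes are called by their leading gene. No doublet caller was run. The fits and the r code were tested on simulated data. Named genes are the 4, all mfap4 genes and the mpeg1 genes, ptpn6, the 6 most like each, and the extremes of the fixed lists. The members and lists were chosen with earlier results of these data known. Promoter motifs were not searched, as no sequences were used. Whether pools are biological replicates is not stated, so p-values measure only the spread between them.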

Additional observations from a re-analysis of the deposited data

Results flagged for a closer look

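The change from sort day 1 to sort day 2 had opposite signs in the 2 genotypes for all 4 genes. As log2 of day 2 over day 1, mfap4 ENSDARG00000088745 was at 0.77 in siblings and -0.25 in mutants, and mfap4 ENSDARG00000090783 at 0.27 and -0.48. For lacc1 the values were 0.42 and -0.63, and for pglyrp5 0.93 and -0.35. The difference was not tested: each value rests on 1 pool a day, and 4 pools leave no residual spread for an interaction. Of all 8177 genes tested, 1394 were higher in siblings and lower in mutants on day 2 and 2238 the reverse. On day 2 each genotype had its own plate, so a plate cannot be told apart from the genotype there.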

How the results depend on the processing

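The genotype folds over the 4 pools stayed below 0 for all 4 genes under every alternative run, but with wells numbered by column the day 1 levels of mfap4 ENSDARG00000088745 (292 CPM in siblings, 326 CPM in mutants) and lacc1 (262 CPM and 292 CPM) turned round. The fold of mfap4 ENSDARG00000088745 was -1.09 with wells numbered by column and -1.09 to -1.91 with 1 pool left out, that of lacc1 -0.88 and -0.94 to -1.67, and that of pglyrp5 -1.22 to -2.21 with 1 pool left out. Without scaling the median fold of all genes moved to 0.15. Genes called by genotype were 0, but 29 with DESeq2, 226 without a filter, 2 with sort day as a replicate block, 1 without the 2% of wells with most UMIs, and 0 to 287 with 1 pool left out. Among those called were pglyrp5 and mfap4 ENSDARG00000088745, both with DESeq2 (29 calls, 21686 genes with a p-value) and without a filter (226 of 21686 genes). As this contrast chose the genes, nothing is read from their calls. Calls by sort day were 9, but 42 with DESeq2, 357 without a filter, 15 with genotype as a replicate block and 0 to 284 with 1 pool left out. With that block the sort day folds of mfap4 ENSDARG00000090783 and lacc1 turned to -0.13 and -0.13. With 1 pool left out sort day folds ran from -0.92 to 0.64 and -1.12 to 0.81 for these, from -0.88 to 1.25 for mfap4 ENSDARG00000088745 and from -1.04 to 1.44 for pglyrp5. The genotype difference enters those folds, and an arm of 1 pool is assumed to vary like the others. With all 4 pools in the fit, no sort day call of the 4 changed. Thinned to 1000 UMIs per well, r fell to 0.22 for the 2 mfap4 genes, 0.13 for lacc1 with pglyrp5, 0.16 for mfap4 ENSDARG00000088745 with pglyrp5 and 0.019 for mfap4 ENSDARG00000090783 with lacc1. The other 62 of 66 values of r under the alternatives stayed within the spread of the pools. Among these, the means with 1 pool left out could not leave that spread by construction, so they are no check. Levels of lacc1 in microglia-like wells were 1.46 and 1.05 at resolutions 0.5 and 2. Of 80 levels in CPM, 25 left their counting interval: 10 when thinned, 8 by column and 7 without the wells with most UMIs. The causes were not tested.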
